A study of Mus musculus with 6 samples.

Results

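Ret encodes the receptor tyrosine kinase through which the glial cell line-derived neurotrophic factor (GDNF) family of ligands signals. The family described here has 9 genes: Ret, the co-receptor genes Gfra1, Gfra2, Gfra3 and Gfra4, and the ligand genes Gdnf, Nrtn, Artn and Pspn. They were picked by symbol from 54735 gene symbols measured in whole mouse pancreas, and all 9 were found and passed the filter on low counts. The family was proposed with the comparison of these same libraries known, so the differences of its members between the groups are given as a description, with no test.

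The libraries came from total RNA of whole pancreas at stage e16.5, 3 from RARdn embryos and 3 from control embryos. RARdn embryos carried Neurog3:cre and the allele labelled RARdnfl/fl, a name commonly used for a Cre-activated dominant-negative form of a retinoic acid receptor; the labels give the name alone. Control embryos carried Neurog3:cre alone. All 6 embryos had a mixed C57Bl6/129SV background. The series title places the question in retinoic acid signalling within endocrine progenitors, the cells that Neurog3 marks, so the driver reaches the endocrine lineage while the RNA came from the whole organ. Counts in genes were between 35256531 and 52015498 in the RARdn libraries and between 38572573 and 44735721 in the control libraries. No label gives a litter, a day or a batch, and every p-value therefore reflects the scatter among these 6 libraries, some of which may be technical.

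A ligand of the GDNF family first binds a GFRA protein, which is anchored to the outside of the membrane by a lipid and has no kinase of its own. The complex then brings RET molecules together and switches on the kinase, and from there SHC, FRS2 and GRB2 adaptors lead to the ERK and PI3K pathways. GDNF prefers GFRA1, neurturin (Nrtn) prefers GFRA2, artemin (Artn) prefers GFRA3 and persephin (Pspn) prefers GFRA4. The system is best known for the neural crest cells that form the enteric nervous system, for autonomic and sensory neurons, and for the budding of the kidney duct. In the pancreas, it is known for the nerves that reach the islets.

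The libraries differed between the groups in more than genotype. Xist, made from the inactive X chromosome, had 0.103 to 0.230 CPM in RARdn libraries (CPM, counts scaled to library size with TMM factors), against 1158, 0.312 and 1118 CPM in control 1, 2 and 3. High Xist, the mark of a female embryo, was thus seen in 2 of 3 controls and in no RARdn library. Reads outside genes took 2.90% to 5.30% of all reads in RARdn libraries and 7.60% to 8.99% in control libraries. Digestive enzyme and other acinar genes summed to 34204 CPM in RARdn 1, against 127137 and 181761 CPM in RARdn 2 and 3 and 106568 to 117910 CPM in controls. Pancreatic identity genes (acinar enzymes, Ins2 and Gcg) were present in all 6 libraries. The part of these differences in the results below was not tested, apart from the values without each library and with a term for Xist.

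Promoter sequence is shown for members that were higher in RARdn libraries, Artn and Gfra4, and for a ligand and a co-receptor whose groups overlapped, Gdnf and Gfra1, because the allele concerns a DNA-binding receptor. Retinoic acid receptors bind DNA with their RXR partners at repeats of a hexamer, searched here as the letters AGGTCA, or the letters AGTTCA, or the letters GGGTCA, or the letters GGTTCA, on both strands with overlaps allowed. The promoter table used, from RefSeq (GRCm38.p6), matched 6 of the 9 members at 8 start sites, Gfra1, Gfra4, Gdnf, Nrtn, Artn and Pspn. The promoters of Ret, Gfra2 and Gfra3 were not analysed here. Each run below is the 250 bases before a start, 5′ to 3′ on the gene's strand, with hexamers in capitals, and Gfra4 and Gdnf are shown at the first of their listed starts.
Artn, chr4:117929764-117930013, minus strand: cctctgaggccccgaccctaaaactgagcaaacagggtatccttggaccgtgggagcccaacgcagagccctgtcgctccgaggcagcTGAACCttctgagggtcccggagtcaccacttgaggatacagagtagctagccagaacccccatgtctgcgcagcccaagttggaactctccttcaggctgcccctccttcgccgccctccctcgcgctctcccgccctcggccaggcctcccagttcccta
Gfra4, chr2:131043089-131043338, minus strand: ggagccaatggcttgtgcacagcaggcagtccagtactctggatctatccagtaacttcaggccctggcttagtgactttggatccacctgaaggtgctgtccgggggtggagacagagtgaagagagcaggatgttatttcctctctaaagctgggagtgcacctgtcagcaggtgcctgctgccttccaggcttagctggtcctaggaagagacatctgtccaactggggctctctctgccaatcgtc
Gdnf, chr15:7809798-7810047, plus strand: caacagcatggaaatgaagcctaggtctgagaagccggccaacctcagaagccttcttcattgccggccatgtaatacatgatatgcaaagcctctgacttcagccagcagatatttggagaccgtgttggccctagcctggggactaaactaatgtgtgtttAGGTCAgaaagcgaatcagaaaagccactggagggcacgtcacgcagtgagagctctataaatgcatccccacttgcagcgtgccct
Gfra1, chr19:58455399-58455648, minus strand: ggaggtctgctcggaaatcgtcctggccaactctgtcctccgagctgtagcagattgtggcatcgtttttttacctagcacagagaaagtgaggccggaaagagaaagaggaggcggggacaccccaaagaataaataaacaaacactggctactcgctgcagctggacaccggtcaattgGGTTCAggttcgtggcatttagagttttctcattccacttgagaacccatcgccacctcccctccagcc

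A hexamer lay in 3 of the 8 windows, once each in Artn (162 bases before the start), the first start of Gdnf (87 bases) and Gfra1 (69 bases). Of 32851 RefSeq windows of the same length, 38.6% held at least 1. A repeat of 2 hexamers in the same direction with 5 bases between them, the best known form of the retinoic acid response element, was in 0.0883% of all windows and in 0 of the 8. Repeats with spacings of 1 and 2 bases were in 0.164% and 0.174% of all windows and in 0 of the 8. A match is a description of letters in this window and not a binding site, and where there was no match it says only that these letters are not in this window.

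Ret (chromosome 6, 118151745 to 118197718, minus strand, GRCm38) has 20 exonic blocks, 2 protein-coding transcripts and no exon shared with another annotated gene. Its counts join the transcripts that encode the receptor's alternative tails. Ret had 69.4, 41.8 and 72.5 CPM in RARdn 1, 2 and 3, against 119, 149 and 149 CPM in control 1, 2 and 3. Every RARdn library lay below every control, and RARdn 2 was the lowest. The means were 61.2 ± 16.9 CPM in RARdn pancreas and 139 ± 17.5 CPM in control pancreas (SD, n = 3 each), a log2 fold change of -1.18 (SE 0.20) in edgeR's fit over all genes, so Ret was 2.27-fold lower in RARdn pancreas. Because this is bulk RNA, fewer cells with Ret and less Ret per cell cannot be told apart. Control 2, which like the RARdn libraries had almost no Xist, had a Ret level in the range of the other controls. That is 1 library, and no RARdn library had high Xist. Leaving out any 1 library gave log2 fold changes between -1.31 and -0.96, and the term for Xist gave -1.29.

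Several members moved the other way. Gfra2, the neurturin co-receptor (chromosome 14, 70890120 to 70979838), had 9.92, 10.3 and 9.31 CPM in RARdn 1, 2 and 3, against 6.21, 4.99 and 4.44 CPM in control 1, 2 and 3. The RARdn values were the tightest of any co-receptor (SD 0.513 CPM) and lay above all controls, with a log2 fold change of 0.92 (SE 0.17). Gfra4, the persephin co-receptor (chromosome 2, 131039632 to 131043088), had 2.75, 3.47 and 1.97 CPM in RARdn 1, 2 and 3, against 0.757, 1.56 and 1.46 CPM in control 1, 2 and 3. These groups did not overlap either, and the log2 fold change was 1.12 (SE 0.34). Of its exonic bases, 3.7% are shared with the microRNA gene Mir6973b.

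Gfra1 and Gfra3 did not separate the groups. Gfra1, the GDNF co-receptor (chromosome 19, 58235604 to 58455909), was the most abundant co-receptor by counts, with 27.5, 30.2 and 35.4 CPM in RARdn 1, 2 and 3, against 31.7, 33.2 and 38.0 CPM in control 1, 2 and 3. Its groups overlapped, with a log2 fold change of -0.15 (SE 0.12). Of its exonic bases, 7.6% are shared with an antisense gene, Gm16277. Whether reads in those bases were counted for Gfra1 is not known, since the strand setting is not given in the sources used here. Gfra3, the artemin co-receptor (chromosome 18, 34689898 to 34720387), had 19.1, 7.83 and 7.70 CPM in RARdn 1, 2 and 3, against 8.25, 9.27 and 7.04 CPM in control 1, 2 and 3. A single library stood out, since RARdn 1 was above all others while RARdn 2 and 3 lay among the controls. The log2 fold change was 0.50 (SE 0.34) with all libraries and -0.05 without RARdn 1. In RARdn 1 the neuron list described below (15 genes, among them Th and Stmn2) was also far above all other libraries. The list summed to 255 CPM there, against 59.8 and 71.1 CPM in RARdn 3 and 2 and 48.5 to 74.9 CPM in controls. The part of this in the Gfra3 value was not tested.

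**Figure D1:**
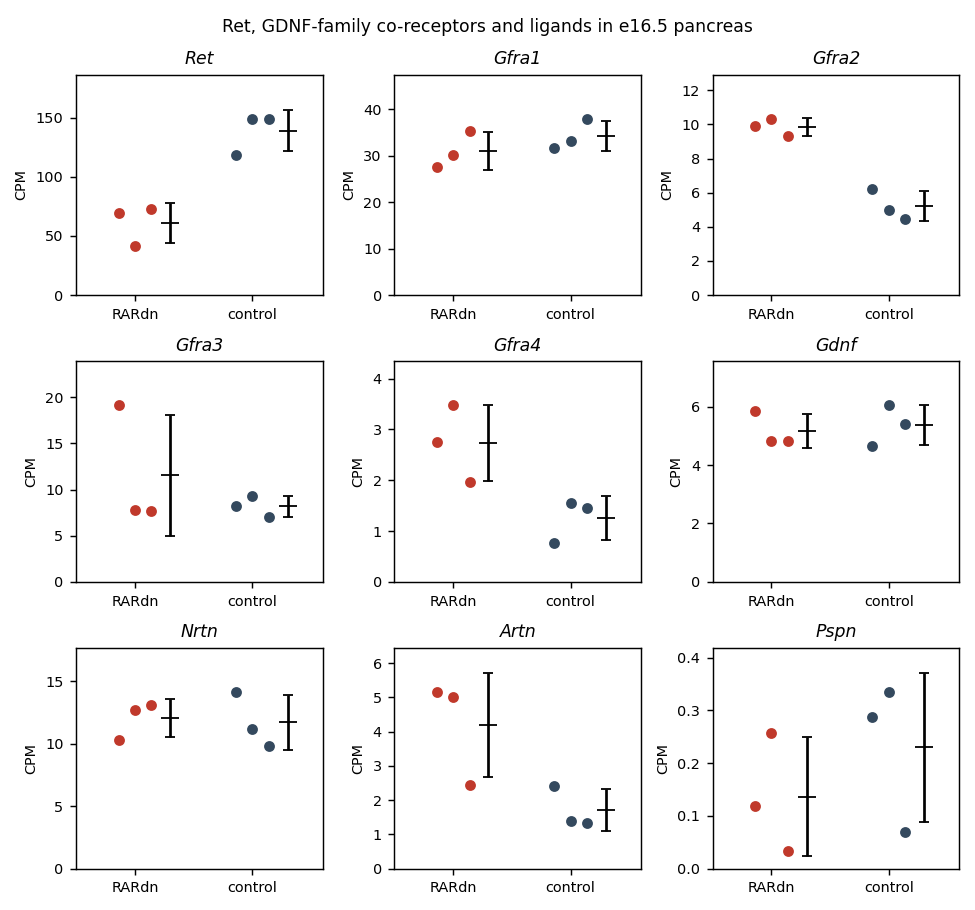
Level of each of the 9 family genes in CPM (vertical axes, starting at 0) in 3 RARdn and 3 control libraries. Points are libraries, in the order 1 to 3 from left to right, and the dash with its bar is the mean and SD. Ret lies between 41.8 and 72.5 CPM in RARdn libraries and at 119 CPM or more in controls, Gfra2, Gfra4 and Artn lie higher in RARdn libraries, and Gfra3 is high in RARdn 1 alone.

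Among the ligands, artemin was the gene whose groups stood apart. Artn, which guides sympathetic neurons along blood vessels (chromosome 4, 117926162 to 117929763), had 5.15, 5.01 and 2.44 CPM in RARdn 1, 2 and 3, against 2.43, 1.38 and 1.34 CPM in control 1, 2 and 3. RARdn 1 and 2 were clearly above the controls, while RARdn 3 and control 1 almost touched, so the separation is very small there. The log2 fold change was 1.30 (SE 0.36), and without any 1 library it lay between 1.155 and 1.63.

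The other ligand genes overlapped between the groups. Gdnf, the founding ligand, made by mesenchyme around budding epithelium and by gut wall (chromosome 15, 7810846 to 7837575), had 5.85, 4.81 and 4.84 CPM in RARdn 1, 2 and 3, against 4.65, 6.04 and 5.42 CPM in control 1, 2 and 3 (log2 fold change -0.05, SE 0.18). Nrtn, needed by parasympathetic nerves (chromosome 17, 56751325 to 56757530), had 10.3, 12.7 and 13.1 CPM in RARdn 1, 2 and 3, against 14.1, 11.2 and 9.84 CPM in control 1, 2 and 3 (log2 fold change 0.04, SE 0.17). For both, the 2 groups covered much the same range. Pspn (chromosome 17, 56999457 to 57000018), the persephin gene, was near the limit of detection with 7, 13 and 1 counts in RARdn 1, 2 and 3, against 11, 15 and 3 counts in control 1, 2 and 3. Summed over the group this gives 21 counts in RARdn libraries (95% exact Poisson interval 12.999 to 32.1) and 29 counts in control libraries (19.4 to 41.6), intervals that overlap and cover counting error only, so a difference was not detectable at this depth.

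In the fit over all genes, edgeR's quasi-likelihood test called 767 of 19070 genes at a Benjamini-Hochberg adjusted p under 0.05, which is 4.02%, with 262 higher (1.37%) and 505 lower (2.65%) in RARdn pancreas. An unadjusted p under 0.05 was found for 4238 of the 19070 genes. These shares are the background for the list counts below. Of the 9 members, Ret was among those called lower and Gfra2 among those called higher, 2 members in all. The count was 0 without control 2 or control 3 or with the term for Xist. It was 1 without RARdn 2 or without scaling factors, and 4 without RARdn 3 or with DESeq2. CPM of the groups did not overlap for 3 members higher in RARdn (13.9% of all genes tested) and for 1 member lower (13.7% of all genes tested). The median log2 fold change was 0.04 over the 9 members and 0.00051 over all genes tested. Nothing is read from these counts, since the family was chosen with this comparison known.

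**Figure D2:**
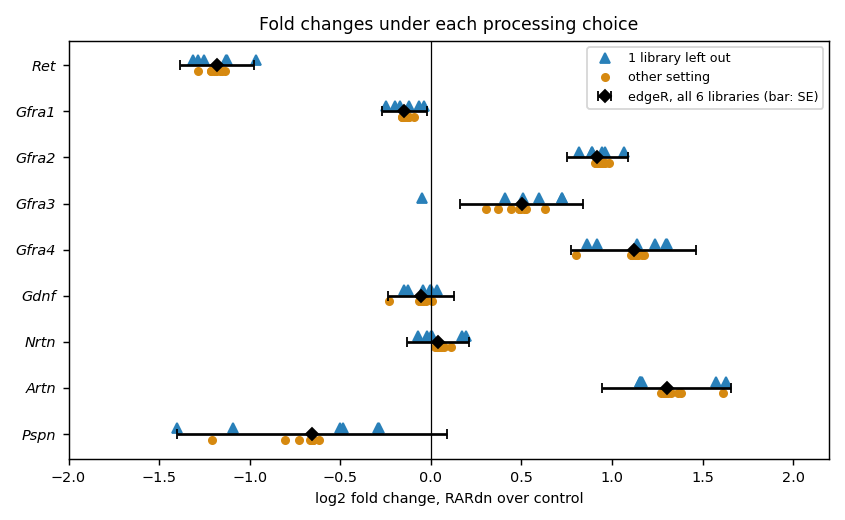
Log2 fold change of RARdn over control (horizontal axis) for each of the 9 genes (rows) in edgeR's fit with all 6 libraries (diamond, bar = SE), with 1 library left out (triangles) and under the other settings (circles). Ret stays between -1.31 and -0.96, Gfra2, Gfra4 and Artn stay above 0, and Gfra3 moves to -0.05 without RARdn 1.

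To compare levels between genes, CPM was divided by the exonic length in kilobases (CPM per kb). In RARdn pancreas the order of mean levels was Nrtn (11.8 ± 1.502 CPM per kb), Ret (9.05 ± 2.499), Gfra3 (5.78 ± 3.28), Gfra1 (5.67 ± 0.732), Gfra2 (2.78 ± 0.145), Artn (1.75 ± 0.635), Gdnf (1.41 ± 0.160), Gfra4 (1.26 ± 0.346) and Pspn (0.288 ± 0.238; SD, n = 3 each). In control pancreas it was Ret (20.5 ± 2.58 CPM per kb), Nrtn (11.5 ± 2.14), Gfra1 (6.27 ± 0.599), Gfra3 (4.10 ± 0.559), Gfra2 (1.47 ± 0.256), Gdnf (1.46 ± 0.190), Artn (0.714 ± 0.256), Gfra4 (0.581 ± 0.202) and Pspn (0.486 ± 0.298; SD, n = 3 each). Ret thus stood first in controls, with its lowest library (17.6 CPM per kb) above the highest Nrtn library (13.8), whereas the ranges of Nrtn and Ret overlapped in RARdn pancreas. Neighbours whose ranges overlapped were Ret and Gfra3, Gfra3 and Gfra1, Artn and Gdnf, and Gdnf and Gfra4 in RARdn pancreas, and Gfra2 and Gdnf, Artn and Gfra4, and Gfra4 and Pspn in control pancreas.

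The ratio of co-receptor to Ret transcripts was taken within each library. Summed co-receptor CPM per kb was 18.7, 13.96 and 13.9 in RARdn 1, 2 and 3, against 12.03, 12.8 and 12.4 in control 1, 2 and 3. Per unit of Ret, it was 1.82, 2.26 and 1.29 in RARdn 1, 2 and 3, against 0.685, 0.583 and 0.562 in control 1, 2 and 3. The groups did not overlap in this ratio, which averaged 1.79 ± 0.483 in RARdn and 0.610 ± 0.0658 in control libraries (SD, n = 3 each). They did not overlap in the co-receptor sum either, at 15.5 ± 2.74 CPM per kb in RARdn and 12.4 ± 0.403 in control libraries (SD, n = 3 each). The ratio thus follows from both the Ret and the co-receptor values above. Within the co-receptors, Gfra2 made up 15.01%, 20.9% and 19.0% of summed CPM per kb in RARdn 1, 2 and 3, against 14.6%, 10.98% and 10.1% in control 1, 2 and 3. Gfra1 made up 26.9%, 39.5% and 46.6% in RARdn 1, 2 and 3, against 48.2%, 47.3% and 56.0% in control 1, 2 and 3, and its lowest share, in RARdn 1, goes with a Gfra3 share of 51.2% there.

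Summed ligand CPM per kb overlapped between the groups, at 14.04, 16.4 and 15.2 in RARdn 1, 2 and 3, against 16.7, 13.9 and 11.8 in control 1, 2 and 3. Nrtn was the main ligand transcript in every library, with 71.6% to 84.3% of the sum in RARdn and 78.9% to 82.7% in control libraries. The share of Artn was 15.2%, 12.7% and 6.65% in RARdn 1, 2 and 3, against 6.05%, 4.14% and 4.73% in control 1, 2 and 3.

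**Figure D3:**
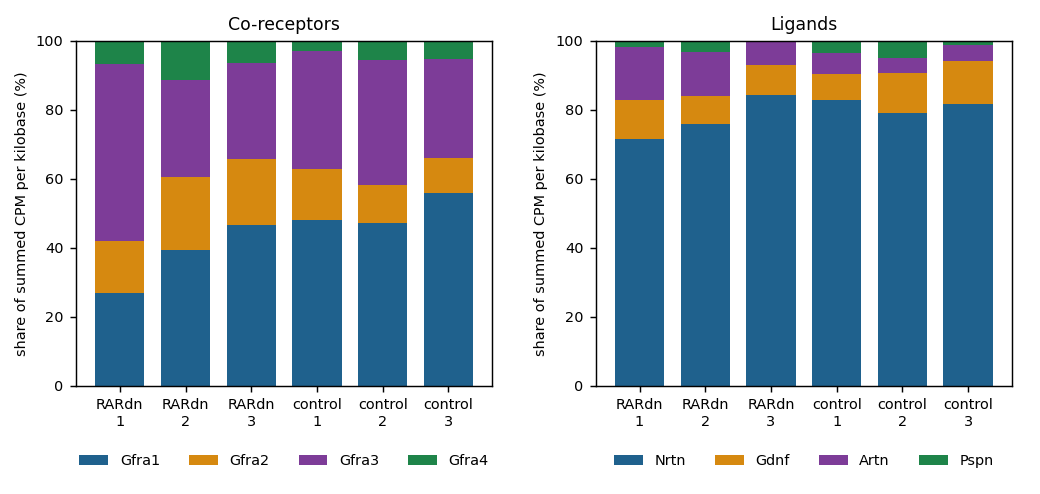
Share of each co-receptor gene (left) and each ligand gene (right) in the summed CPM per kilobase of its class, in percent, for 3 RARdn and 3 control libraries (bars). Nrtn takes between 71.6% and 84.3% of the ligand sum in all libraries, Gfra3 takes 51.2% of the co-receptor sum in RARdn 1, and Artn takes at least 6.65% in RARdn and at most 6.05% in control libraries.

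Ret was next set against the cell types that may carry it. Per 1000 counts of the 17 pan-endocrine genes (such as Chga, Pcsk2 and Neurod1), Ret had 36.2, 25.7 and 47.1 counts in RARdn 1, 2 and 3, against 85.9, 104 and 114 counts in control 1, 2 and 3. Every RARdn value was below every control value, and the pan-endocrine list itself had a higher sum, at 1537 to 1918 CPM summed in RARdn and 1305 to 1428 CPM in control libraries. Per 1000 counts of the neural crest and Schwann cell list, Ret had 303, 229 and 352 counts in RARdn 1, 2 and 3, against 712, 838 and 836 counts in control 1, 2 and 3. Most counts of that list came from Erbb3 and Mbp, the 2 of its 12 genes with a log2 fold change below 0. Per 1000 counts of the alpha cell list, mostly those of Gcg, Ttr and Gc, the values were 44.8, 23.6 and 42.7 in RARdn 1, 2 and 3. In control 1, 2 and 3 they were 65.2, 81.8 and 71.8. Per 1000 counts of the neuron list they were 272, 588 and 1211 in RARdn 1, 2 and 3, against 1585, 2410 and 3077 in control 1, 2 and 3. Of these 5 lists, the groups overlapped only against the beta cell list, itself lower, with 40.5, 30.7 and 58.3 counts in RARdn 1, 2 and 3, against 48.8, 68.0 and 76.8 counts in control 1, 2 and 3. These 5 ratios share the Ret values above, chosen with this comparison known, and so are no separate support for a lower Ret.

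No gene of the pan-endocrine list was called by edgeR (0 of 17, with 6 at an unadjusted p under 0.05 and 13 above 0, where DESeq2 called 3 and limma-voom 0, and edgeR called 6, all higher, without RARdn 3, and 2 higher and 3 lower without RARdn 1). Its median lay 0.46, 0.22 and -0.08 log2 units from the control mean in RARdn 1, 2 and 3. Its most abundant genes were Cpe, a processing enzyme of peptide hormones (459 ± 53.4 CPM in RARdn and 378 ± 8.07 CPM in control, adjusted p = 0.279), and Chga, a granule protein gene (322 ± 80.5 and 234 ± 15.3 CPM in RARdn and control, adjusted p = 0.187; SD, n = 3 each, edgeR). The beta cell list lay lower by most genes, with 9 of 11 below 0, 2 above 0 and a median log2 fold change of -0.48. Its median lay 0.0036, -0.70 and -0.77 log2 units from the control mean in RARdn 1, 2 and 3, so RARdn 1 was at the control level. EdgeR called 2 of the 11, both down. The count was 5 without RARdn 1, 3 without RARdn 3 and 0 without RARdn 2 or any 1 control or with the term for Xist. It was also 0 without scaling factors or with at least 1 CPM in 3 libraries, 4 with DESeq2 and 3 with limma-voom. The called genes were Ins2, an insulin gene (log2 -0.85, adjusted p = 0.0431, edgeR), and Glp1r, the receptor for glucagon-like peptide 1 (log2 -1.76, adjusted p = 0.0456, edgeR). With the replicate block the adjusted p of Ins2 was 0.0541 (edgeR). The list summed to 1243 to 1713 CPM in RARdn and 1942 to 2435 CPM in control libraries.

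In the delta cell list 3 of 7 tested genes were called, all higher, while 5 lay above 0 and 2 below (median log2 fold change 0.55). The called genes were Sst, the somatostatin gene (log2 1.92, adjusted p = 0.0129), Hhex, a transcription factor of delta cells (log2 0.86, adjusted p = 0.0160), and Rbp4, which carries retinol (log2 0.87, adjusted p = 0.0279, all edgeR). This count was 0 without control 2 or with the term for Xist (adjusted p = 0.137, 0.240 and 0.253 for Sst, Hhex and Rbp4, edgeR). It was 1 without control 1 or control 3, and 4 without RARdn 3. It was 2 without RARdn 2, without scaling factors or with at least 1 CPM in 3 libraries. The alpha cell list had a median log2 fold change of -0.29, and the glucagon gene Gcg had 868 ± 180 CPM in RARdn and 825 ± 132 CPM in control pancreas (SD, n = 3 each, adjusted p = 0.870, edgeR). The alpha list summed to 1549 to 1773 CPM in RARdn and 1819 to 2076 CPM in control libraries, and the delta list to 509 to 826 CPM in RARdn and 232 to 268 CPM in control libraries.

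Most genes of nerves and glia, the best known users of the family, had log2 fold changes above 0, for neurons mainly through RARdn 1. Of 13 tested neuron genes, 13 had a log2 fold change above 0 (median 1.19), against 9543 of 19070 over all genes. EdgeR called none (5 at an unadjusted p under 0.05), while DESeq2 called 3, limma-voom 0 and edgeR without RARdn 3 called 5. RARdn 1 carried most of this, since the list median relative to the control mean was 2.24 log2 units there and 0.13 and 0.17 in RARdn 2 and 3. The most abundant neuron gene, Stmn2, which regulates microtubules in growing axons, had 61.4, 19.7 and 11.8 CPM in RARdn 1, 2 and 3, against 16.4, 11.4 and 11.7 CPM in control 1, 2 and 3 (adjusted p = 0.203, edgeR). Nefm, a neurofilament gene, had 48.0, 12.2 and 14.5 CPM in RARdn 1, 2 and 3, against 17.8, 17.3 and 12.2 CPM in control 1, 2 and 3 (adjusted p = 0.437, edgeR), and shares 19.2% of its exonic bases with another gene. No gene of this list was at 0 in all libraries.

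The neural crest and Schwann cell list was higher in all RARdn libraries, with medians of 1.04, 0.76 and 0.30 log2 units above the control mean in RARdn 1, 2 and 3 and sums of 182 to 229 CPM in RARdn and 167 to 178 CPM in control libraries. Of its 12 genes 10 were above 0 and 1 was called, Ngfr, the low-affinity neurotrophin receptor, also carried by mesenchyme. Ngfr had 26.1, 20.0 and 18.4 CPM in RARdn 1, 2 and 3, against 7.33, 5.44 and 6.53 CPM in control 1, 2 and 3 (log2 1.74, SE 0.18, adjusted p = 0.00383, edgeR). Its adjusted p stayed below 0.05 in all 15 alternatives, with 0.0431 under the term for Xist. DESeq2 called 6 genes of this list, all higher, and edgeR without RARdn 3 called 6 higher and 1 lower. Erbb3, the most abundant gene of the list and a neuregulin receptor, had 60.2 ± 10.02 CPM in RARdn and 62.9 ± 9.87 CPM in control pancreas (SD, n = 3 each, adjusted p = 0.850, edgeR).

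The neurotrophins and their receptors, a parallel system of nerve growth factors that includes Ngfr, had 8 of 8 tested genes above 0, with a median log2 fold change of 1.20. The list median lay 1.58, 1.01 and 0.39 log2 units above the control mean in RARdn 1, 2 and 3, so it was highest in RARdn 1, as for the neuron list. Transcription factors known to drive Ret in the nervous system, such as Sox10, showed 10 of 10 tested genes above 0 (median log2 fold change 0.75) and 0 called by edgeR, with 5 at an unadjusted p under 0.05, where DESeq2 called 3, limma-voom 0 and edgeR without RARdn 3 called 5. The list median lay 1.18, 0.47 and 0.12 log2 units above the control mean in RARdn 1, 2 and 3, again highest in RARdn 1. The most abundant of them were Zeb2 (81.9 ± 19.6 CPM in RARdn and 61.0 ± 7.01 CPM in control, adjusted p = 0.197) and Isl1 (43.7 ± 10.1 and 37.5 ± 2.34 CPM in RARdn and control, adjusted p = 0.468; SD, n = 3 each, edgeR), and Isl1 is a transcription factor of islet cells too.

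**Figure D4:**
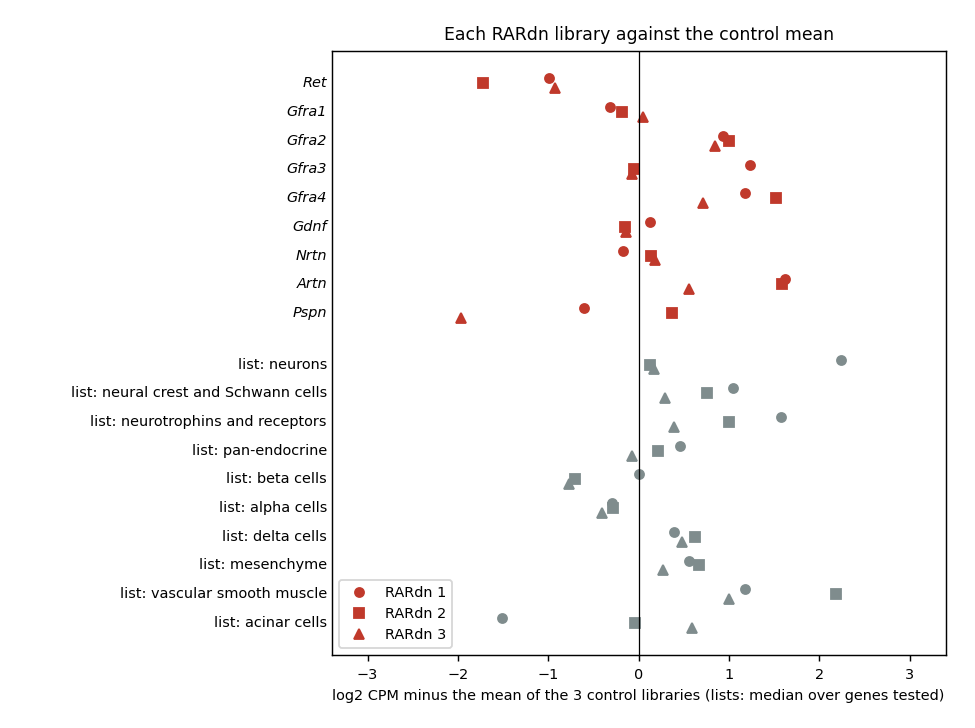
Log2 CPM of each RARdn library minus the mean of the 3 control libraries (horizontal axis) for the 9 family genes (red) and, as the median over genes tested, for 10 gene lists (grey); circles, squares and triangles are RARdn 1, 2 and 3. Ret lies at -0.99, -1.72 and -0.93, and RARdn 1 stands apart for Gfra3 (1.23) and for the neuron list (2.24).

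Genes that carry the RET signal inside the cell gave no call. Of 21 tested adaptors and effectors, 14 lay above 0, with a median log2 fold change of 0.15. EdgeR called none of them, against 4.02% of all genes tested. An unadjusted p under 0.05 was found for 4 of the 21, against 4238 of 19070 over all genes. DESeq2 and limma-voom called 0 of the 21, and edgeR without RARdn 3 called 2. Grb10, an adaptor that binds activated receptor kinases, was the most abundant, at 828 ± 67.4 CPM in RARdn and 708 ± 8.66 CPM in control pancreas (SD, n = 3 each, adjusted p = 0.402, edgeR). Pik3r1, the regulatory subunit of PI3-kinase, had 98.7, 99.2 and 103 CPM in RARdn 1, 2 and 3, against 117, 115 and 116 CPM in control 1, 2 and 3. Its groups did not overlap, but it did not pass over all genes (log2 -0.21, SE 0.090, adjusted p = 0.213, edgeR).

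Feedback genes of ERK signalling and targets of RET known from the kidney bud also had no call by edgeR (0 of 10, with 2 at an unadjusted p under 0.05, 1 called by DESeq2, 0 by limma-voom and 1 by edgeR without RARdn 3), while 9 were above 0 (median log2 fold change 0.18). Spred1, an inhibitor of RAS signalling, had 44.3, 43.9 and 40.6 CPM in RARdn 1, 2 and 3, against 35.3, 31.6 and 28.4 CPM in control 1, 2 and 3 (log2 0.44, SE 0.11, adjusted p = 0.0601, edgeR), and passed without RARdn 3 (adjusted p = 0.0280). Etv5, a transcription factor gene turned on by GDNF and RET in the kidney bud, had 17.1, 29.5 and 54.6 CPM in RARdn 1, 2 and 3, against 35.2, 23.7 and 30.0 CPM in control 1, 2 and 3 (adjusted p = 0.807, edgeR). Its RARdn libraries ran from the lowest to the highest of all 6.

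Other receptors and partners of the GDNF family, among them Ncam1, Gas1 and the phosphatase gene Ptprf, showed 4 of 8 tested genes above 0 and no call by edgeR (2 at an unadjusted p under 0.05, where DESeq2 called 2, limma-voom 0, and edgeR 1 without control 1 and 3 without RARdn 3). Ptprf, whose product removes phosphate from RET, had 470 ± 86.6 CPM in RARdn and 504 ± 66.8 CPM in control pancreas (adjusted p = 0.789), and the proteoglycan gene Gpc3 had 520 ± 148 and 615 ± 24.3 CPM in RARdn and control (adjusted p = 0.530; SD, n = 3 each, edgeR). Gfral, the receptor through which GDF15 acts on RET in the hindbrain, was at 0 counts in all 6 libraries.

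Supporting tissue, a source of the ligands, lay higher too. In the mesenchyme list 10 of 12 genes were above 0 (median log2 fold change 0.55) and 1 was called, Lum, a collagen-binding proteoglycan (log2 1.07, adjusted p = 0.0128, edgeR), with 0 without control 2 or with the term for Xist, 2 without control 1 and 5 without RARdn 3. DESeq2 called 7 and limma-voom 2, all higher. The most abundant of the list was Col3a1, a collagen gene, at 3166 ± 262 CPM in RARdn and 2115 ± 304 CPM in control pancreas (SD, n = 3 each, adjusted p = 0.145 with edgeR and 0.0025 with DESeq2). Of 8 smooth muscle genes 4 were called, all higher (median log2 fold change 1.41). Their list was named vascular smooth muscle, but which kind of smooth muscle carried these genes was not tested. Among those called were the actin-binding gene Cnn1 (log2 4.20, adjusted p = 0.0271), the actin gene Actg2 (log2 2.65, adjusted p = 0.0165) and the pericyte gene Rgs5 (log2 1.12, adjusted p = 0.0335, all edgeR). The number called was 0 without control 2 or control 3 or with the term for Xist. It was 1 with at least 1 CPM in 3 libraries, 2 without RARdn 2 and 6 without RARdn 3. Cnn1 had 1.85, 12.7 and 2.80 CPM in RARdn 1, 2 and 3, against 0.470, 0.200 and 0.278 CPM in control 1, 2 and 3. RARdn 2 carried much of its fold, which was log2 2.88 without that library, and its adjusted p was 0.102 with limma-voom. Without RARdn 2 the log2 fold change of Actg2 was 2.04. The smooth muscle list summed to 251 to 421 CPM in RARdn and 121 to 192 CPM in control libraries, and the mesenchyme list to 8487 to 9588 CPM in RARdn and 5109 to 6907 CPM in control libraries. Control 1, the control with the highest Artn level, was also the highest control in both lists. Among RARdn libraries, Artn was highest in RARdn 1, which had the lowest mesenchyme sum of that group. It was lowest in RARdn 3, which had the lowest smooth muscle sum. The part of these cells in the Artn values was not tested.

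The other marker lists gave 1 call in all. Of 7 endothelial genes none was called by edgeR (1 at an unadjusted p under 0.05, none by DESeq2 or limma-voom), with Pecam1 at 132 ± 6.21 CPM in RARdn and 132 ± 14.8 CPM in control and Cdh5 at 167 ± 14.6 and 167 ± 9.29 CPM in RARdn and control (SD, n = 3 each). Adjusted p was 0.972 for Pecam1 and 0.978 for Cdh5 (edgeR). Of 8 duct genes 0 were called (2 at an unadjusted p under 0.05, 1 by DESeq2, 0 by limma-voom, 2 higher by edgeR without RARdn 1 and 1 lower without RARdn 3), and of 13 acinar genes 0 (0 at an unadjusted p under 0.05, 0 by DESeq2 and limma-voom, 2 higher by edgeR without RARdn 1 and 1 lower without RARdn 3). Adjusted p was 0.167 for Spp1 and 0.538 for Muc1 in the duct list, and 0.771 for Cpa1 and 0.921 for Ctrb1 in the acinar list (edgeR). Among macrophage and blood genes 1 of 8 was called, Csf1r, the macrophage growth factor receptor (log2 0.81, adjusted p = 0.0454, edgeR), which shares 15.1% of its exonic bases with other genes. This count was 0 without RARdn 2, control 2 or control 3 or with the term for Xist, and 2 without RARdn 3. It was also 0 without scaling factors or with at least 1 CPM in 3 libraries, and 2 with DESeq2. The most abundant gene of the list, the globin gene Hbb-bs, had an adjusted p of 0.967 (edgeR).

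Ret was compared with 12267 other protein-coding genes that averaged 2 CPM or more. The 5 whose profile over the 6 libraries was closest to that of Ret were Upk1a, Pcdh9, Ffar2, Cox7a1 and Aqp4. Closeness was the root mean square difference of log2 CPM after each gene was centred on its own mean, and was 0.111, 0.121, 0.137, 0.178 and 0.202 log2 units in that order. Ffar2, a receptor for short-chain fatty acids, had 38.2, 24.3 and 35.3 CPM in RARdn 1, 2 and 3, against 61.1, 71.1 and 64.9 CPM in control 1, 2 and 3. Aqp4, a water channel gene, had 23.8, 13.4 and 26.1 CPM in RARdn 1, 2 and 3, against 28.5, 40.9 and 48.5 CPM in control 1, 2 and 3. Upk1a, a uroplakin gene, had 8.001, 4.69 and 8.43 CPM in RARdn 1, 2 and 3, against 11.8, 15.4 and 18.7 CPM in control 1, 2 and 3. Like Ret, all of them had their lowest value in RARdn 2, which a choice by closeness over the same 6 libraries favours. These libraries share depth, composition and the group difference that selected the genes. Pcdh9, a protocadherin gene, averaged 10.2 ± 2.90 CPM in RARdn and 21.1 ± 3.70 CPM in control pancreas, and Cox7a1, a subunit gene of cytochrome oxidase, averaged 3.00 ± 0.977 CPM in RARdn and 5.57 ± 1.19 CPM in control pancreas (SD, n = 3 each).

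**Figure D5:**
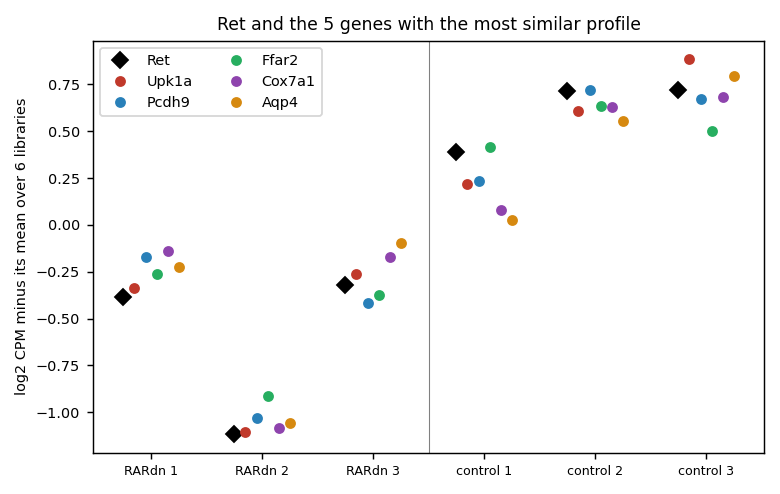
Log2 CPM of Ret (diamonds) and of the 5 genes with the closest profile (circles), each minus its own mean over the 6 libraries (vertical axis), by library (horizontal axis, RARdn left of the grey line). All 6 genes have their lowest value in RARdn 2, which the choice by profile favours. The root mean square differences from Ret are 0.111 to 0.202 log2 units.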

How the data were processed

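The deposited tables held raw read counts per gene symbol, 1 table per library, with 54735 symbols and 5 summary lines, which entered neither library sizes nor tests. The submitters' processing notes name HISAT2 and HTSeq beside cutadapt, FastQC, DESeq2 and bedtools, and the builds mm10 and GRCm38. Versions, annotation and strand setting: not given in the sources used here. Positions and exonic lengths came from GENCODE M21 (GRCm38).

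From these counts, low genes were removed with filterByExpr (minimum count 10, minimum total 15), TMM factors set the library sizes, and edgeR 4.0.16 (R 4.3.3) compared RARdn with control by its quasi-likelihood test, 2-sided, fitting genotype alone. Benjamini-Hochberg adjustment covered all 19070 genes tested. Each SE is the size of the log2 fold change divided by the root of its F value. DESeq2 1.42.0, limma-voom (limma 3.58.1), other scalings and filters, a replicate block, a term for Xist and leaving out each library were alternatives.

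The members and the 17 other gene lists (189 entries, all found) were chosen by role with earlier results of these data known. Genes named outside the family were, per list, the 3 called genes with the smallest p (or fewer, completed to 2 by abundance), and the 5 closest to Ret by profile. Genes given only as examples of a list carry no value. Some genes that this rule names, and the calls that rest on them, are not reported here.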

Additional observations from a re-analysis of the deposited data

How the results depend on the processing

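Over 15 alternatives the log2 fold change of Ret lay between -1.31 and -0.96, and without 1 library between -1.31 (without RARdn 3) and -0.96 (without RARdn 2). Those of Gfra1, Gfra2, Gfra4, Artn and Pspn kept their sign in all alternatives that gave a value (Pspn had none with at least 1 CPM in 3 libraries), while Gfra3, Gdnf and Nrtn crossed 0 in 1, 3 and 2 of them. The number of genes called depended on the settings far more than the fold changes did. Genes called higher and lower were 262 and 505 with all libraries and 973 and 973 with DESeq2, 1123 and 1223 without a filter on low counts, 77 and 140 with at least 1 CPM in 3 libraries, 5 and 50 with the term for Xist, and 125 higher without scaling factors. Leaving out 1 library gave 22 to 1404 higher and 71 to 1576 lower: 125 and 218 without control 1, 29 and 71 without control 2, 28 and 269 without control 3, 22 and 108 without RARdn 2, and 1404 and 1576 without RARdn 3. The cause was not tested.

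Called genes of the neural crest and Schwann cell list numbered 1 with all libraries, 2 with RLE scaling, 2 with library sizes without acinar and mitochondrial genes, 6 without a filter, 6 with DESeq2 and 4 with the replicate block, and 1 to 7 without 1 library. Neuron genes numbered 0, with 6 without a filter, 3 with DESeq2, 3 with the block and 0 to 5 without 1 library. Pan-endocrine genes numbered 0, with 1 without scaling factors, 4 without a filter, 1 with library sizes without acinar and mitochondrial genes, 3 with DESeq2 and 0 to 6 without 1 library. RET adaptors numbered 0, with 0 to 2 without 1 library, and ERK feedback genes 0, with 1 without a filter, 1 with DESeq2 and 0 to 1 without 1 library.

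No label says whether replicate numbers pair the samples. Deviations from the group means of same-numbered libraries correlated at 0.0092, -0.0039 and 0.12, and not every library correlated best with its own number. With 3 libraries per group, these correlations cannot decide whether the numbers pair the samples. With the replicate block 321 genes were called higher and 496 lower, and the log2 fold change of Ret was -1.21. The low counts of Pspn leave its log2 fold change (-0.66, SE 0.74) with a wide error.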
